A study of Mus musculus with 11 samples.

Results

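HOX genes encode homeodomain transcription factors, and the mouse genome carries 39 of them in 4 clusters named HOXA, HOXB, HOXC and HOXD. They were followed here in C2C12 cells that carried a short hairpin RNA against Drp1, the GTPase that divides mitochondria. The members were all genes of the deposited count table whose identifier matched a HOX symbol of these clusters, and 26 of the 39 had a row among 15113 genes in all. HOXA had 10 of 11 genes, HOXB 7 of 10, HOXC 9 of 9 and HOXD 0 of 9. The 9 HOXD genes, Hoxa6, Hoxb1, Hoxb2 and Hoxb6 had no row in the table used and were not analysed here. Of the 26, 24 passed the filter on low counts, and Hoxa2 and Hoxb5 did not.

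The order of HOX genes along a chromosome follows the order in which they are used along the body, so that genes of low paralog number mark the head side and genes of high number mark the tail side and the tips of the limbs. Genes that share a paralog number in different clusters descend from the same ancestral gene. Adult fibroblasts, muscle precursors and many cell lines keep a HOX pattern that records where in the body the cells came from. HOX proteins bind DNA together with TALE homeodomain partners of the Pbx and Meis families, and Polycomb and Trithorax complexes hold the clusters silent or active.

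C2C12 is an established mouse myoblast line from adult leg muscle that fuses into myotubes when serum is withdrawn. All 11 libraries came from cells that the labels call early-stage myotubes, at passages 2 to 5. A random hairpin, shRandom, was carried by 6 control libraries, and the hairpin shDRP1 by 5 libraries. A single targeting hairpin is named, and whether each line was a clone or a pool is not given in the sources used here. No label ties a library to a culture of its own, and the spread on which the p-values rest may therefore be technical.

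The hairpin's target was lower in every shDRP1 library: Dnm1l, which encodes Drp1, had 78.6 ± 8.63 CPM (SD, n = 6) in shRandom and 18.7 ± 2.58 CPM (SD, n = 5) in shDRP1 libraries. CPM are 3' tag counts scaled to the TMM-adjusted library total, are not divided by transcript length, and are the scale of every level given here. Total counts ran from 12277622 to 23082617 per library. The groups differed over most of the transcriptome, since 33.9% of the 13025 tested genes were called higher and 33.3% lower in shDRP1 libraries at an adjusted p of 0.05 in edgeR's quasi-likelihood test. The myotube label held for the shRandom libraries, in which 18 skeletal muscle genes summed to between 14019 and 15434 CPM. In shDRP1 libraries the same sum was 256.7 to 309.8 CPM, with 16 of 17 tested muscle genes lower and Myf5 higher. The fibroblast genes summed to between 6750 and 7371 CPM in shRandom and between 14538 and 21653 CPM in shDRP1 libraries, with 6 of 7 higher. The smooth muscle genes summed to between 2687 and 3226 CPM and between 8369 and 10126 CPM, with 4 of 5 higher. Most of that sum was Acta2, with means of 2687 and 7975 CPM, and the listed Myh11 and Myocd had no row. Osteoblast and chondrocyte genes summed to 206.6 to 234.4 CPM in shRandom and 388.6 to 429.4 CPM in shDRP1 libraries. Of the 2 tested, Sox9 was higher (179.7 and 382.8 CPM) and Runx2 lower (38.6 and 25.3 CPM), so the rise of the sum was that of Sox9. Adipocyte genes summed to at most 19.0 CPM and neural genes to at most 27.8 CPM in any library. Endothelial, immune and epithelial genes each stayed under 3 CPM, but only 2 of 5, 2 of 6 and 1 of 5 listed genes had a row. Rows were also lacking for many others, with 3 of 6 adipocyte, 2 of 5 neural and 3 of 8 osteoblast and chondrocyte genes present. A gene without a row was not measured here, so these sums cannot show that a cell type was absent. Of all the listed markers with a row, none was at 0 in all 5 shDRP1 libraries. The part of these cell types in the HOX differences was not tested. In bulk libraries, fewer cells of a type and less RNA per cell cannot be told apart.

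The HOX genes did not move together. Among the 24 tested, 8 were higher in shDRP1 libraries, 10 were lower and 6 did not pass the threshold. Together 18 of 24 (75.0%) were called in either direction, beside 67.1% of all genes tested, so the share called was near the background. The median log2 fold change was -0.13 over the HOX genes and 0.03 over all genes tested. Counts of genes were unequal between clusters. HOXA had 2 higher, 2 lower and 5 not past the threshold, HOXB had 0 higher and 6 lower, and HOXC had 6 higher, 2 lower and 1 not past it. At least 2-fold changes were seen in 8 lower members and in 0 higher ones, beside 13.7% lower and 11.2% higher of all genes tested. Of those 8, 6 were HOXB genes that reached the filter in shRandom libraries alone and therefore had to be lower. For 14 of the 24, no library of one group reached into the range of the other, beside 48.9% of all genes tested. In that background, 23.5% of all genes tested lay higher and 25.4% lower in shDRP1 libraries. The 14 include the same 6 HOXB genes, whose separation was largely fixed by the filter, and 4 of 9 tested genes each in HOXA and HOXC. The count of 14 is therefore no sign of an excess among HOX genes.

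Summed over its measured genes, HOXC held the most tags, with 387.1 ± 8.91 CPM (SD, n = 6) in shRandom and 364.6 ± 18.4 CPM (SD, n = 5) in shDRP1 libraries. HOXA summed to 167.1 ± 3.27 CPM (SD, n = 6) and 171.3 ± 9.56 CPM (SD, n = 5). HOXB summed to 8.48 ± 1.26 CPM (SD, n = 6) and 0.512 ± 0.212 CPM (SD, n = 5). The HOXA and HOXC sums overlapped between groups, and the HOXB sums did not. The HOXC overlap came from shDRP1 replicate 1 at 397.4 CPM, while the other 4 shDRP1 sums, 354.3 to 358.3 CPM, lay below the lowest shRandom sum of 376.3 CPM. HOXB gave 1.51% of all HOX tags in shRandom and 0.0963% in shDRP1 libraries, while HOXC gave 68.8% and 68.0%. The HOXA share ran from 29.3% to 30.1% in shRandom and from 30.8% to 33.1% in shDRP1 libraries, without overlap. Within HOXA and HOXC, single genes moved in opposite directions.

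**Figure D1:**
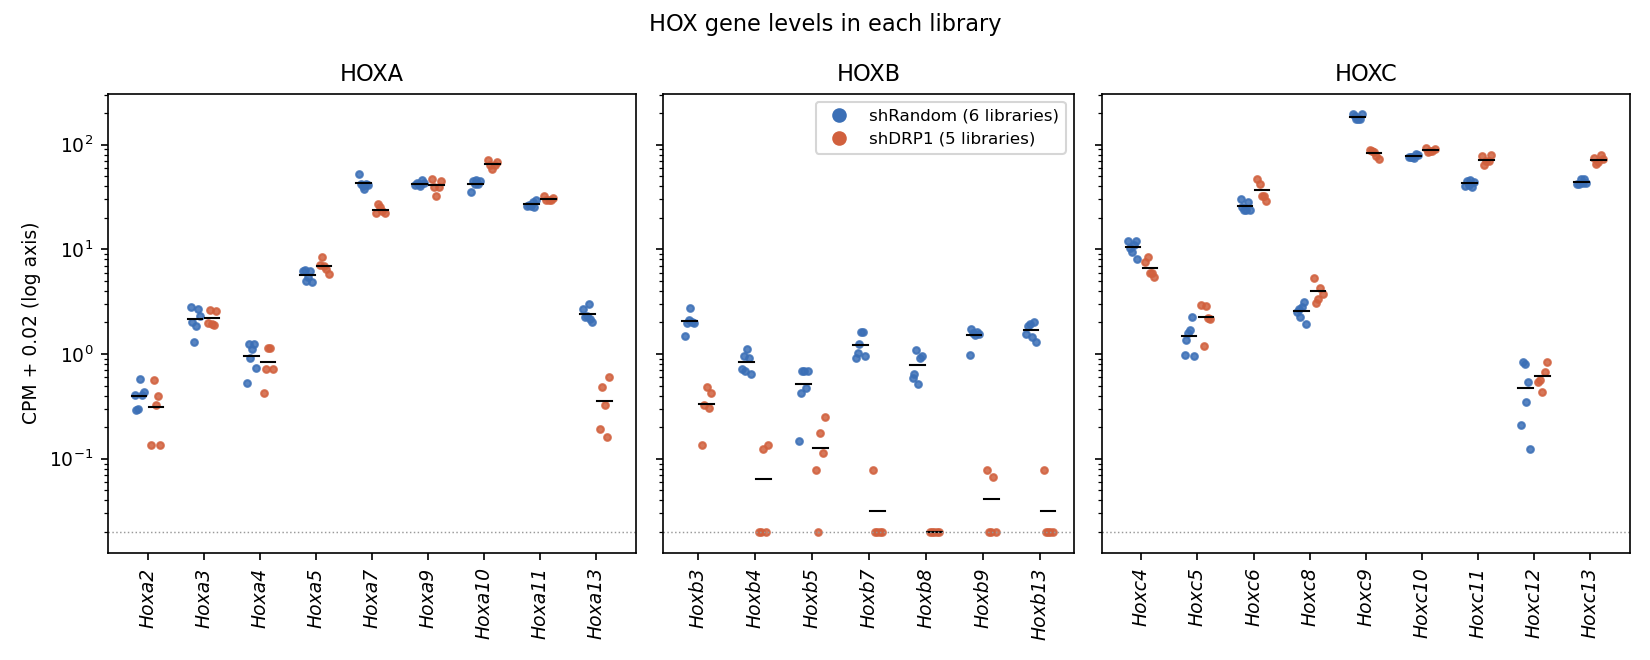
Tag level of 25 measured HOX genes in every library, in CPM on a log axis after adding 0.02 CPM so that zeros can be drawn, with shRandom and shDRP1 libraries in separate colours and genes ordered by cluster and paralog number. The HOXB genes sit below 3 CPM in both groups and lower in shDRP1 libraries, with Hoxb8 at 0 CPM in all 5, whereas Hoxc9 is the highest member in shRandom libraries.

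The HOXB cluster lies on chromosome 11 from 96194316 to 96368256 in GRCm38, and its measured genes Hoxb3, Hoxb4, Hoxb5, Hoxb7, Hoxb8, Hoxb9 and Hoxb13 were all near the limit of detection in shDRP1 libraries. The sequences just upstream of Hoxb8 and Hoxb4 are shown because these were the 2 HOXB members with a start in the promoter table. Each is the 250 bases before the annotated start, from RefSeq on GRCm38.p6, given 5' to 3' on the gene's strand with CG dinucleotides in capitals. The Hoxb8 stretch is chr11:96281655-96281904 on the plus strand and the Hoxb4 stretch is chr11:96318017-96318266 on the plus strand.
Hoxb8: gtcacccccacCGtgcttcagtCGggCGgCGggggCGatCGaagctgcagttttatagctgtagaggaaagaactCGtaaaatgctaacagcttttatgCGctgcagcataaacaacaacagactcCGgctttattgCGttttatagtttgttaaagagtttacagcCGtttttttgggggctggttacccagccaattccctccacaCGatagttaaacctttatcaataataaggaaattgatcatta
Hoxb4: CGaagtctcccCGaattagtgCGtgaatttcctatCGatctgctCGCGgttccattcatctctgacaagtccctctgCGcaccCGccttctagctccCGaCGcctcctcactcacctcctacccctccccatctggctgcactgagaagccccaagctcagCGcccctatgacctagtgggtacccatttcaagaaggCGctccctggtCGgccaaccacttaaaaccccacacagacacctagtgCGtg
They hold 12 and 14 CG dinucleotides, where the median of all 32851 annotated starts in the RefSeq table is 6. The table had 12 starts of 11 of the 26 members, and 7 of those 12 hold at least 10 CG, as do 37.8% of all starts. The letters TGATNNAT, a motif bound by HOX with PBX partners, were searched on both strands and are in 2 of the 12 member starts, Hoxb8 among them, and in 7.68% of all starts.

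The clusters also carry microRNA genes, and 2 families share their seed across clusters. The mature sequences of the miR-196 family are shown because their pairing with Hoxb8 is a textbook case of a near-complete microRNA site in mammals. The seed, bases 2 to 8, is in capitals, and the sequences are from RefSeq on GRCm38.p6.
mmu-miR-196a-5p: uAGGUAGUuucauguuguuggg
mmu-miR-196b-5p: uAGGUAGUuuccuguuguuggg
The first of these is encoded in HOXB at chr11:96265187-96265208 and again in HOXC at chr15:102973365-102973386, both on the plus strand, and the second in HOXA at chr6:52230129-52230150 on the minus strand. The site in the 3' untranslated region of Hoxb8 is at chr11:96284888-96284909 on the plus strand, with bases that form Watson-Crick pairs with miR-196a in capitals.
Hoxb8 site: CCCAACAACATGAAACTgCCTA
All 22 bases pair with the microRNA, 21 of them as Watson-Crick pairs and 1 as a G-U wobble, and the best stretch in the annotated 3' untranslated region of any other measured member pairs at up to 19. A match of letters says nothing of use, and the microRNAs were not measured in these 3' tag libraries.

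Hoxb8 (ENSMUSG00000056648), a posterior gene of the trunk, had 9, 14, 19, 9, 14 and 18 counts in shRandom replicates 1 to 6 and 0 in all 5 shDRP1 libraries. Against a floor of 3 counts over the shDRP1 group, this is at least 22.4-fold lower, and the exact binomial interval allows 17.8-fold. Hoxb13 (ENSMUSG00000049604), the tail-end gene known for its role in the prostate, had between 24 and 41 counts in shRandom libraries, and 1 count remained, in shDRP1 replicate 1. The level in the shRandom group was 146.6 times that in the shDRP1 group (95% exact binomial interval 26.0 to 5821). Such intervals rest on counts pooled over the libraries of each group. They cover counting error only and leave out the spread between libraries. PCR reads carried no molecular identifiers, so copies of the same molecule may be counted more than once and the intervals may be too narrow. Hoxb7 likewise had between 14 and 29 counts in shRandom libraries and 1 count in shDRP1 replicate 1, for a ratio of 105.3 (95% exact binomial interval 18.6 to 4190). Hoxb9, a gene of the thoracic region, had 163 counts in shRandom libraries and 2 in shDRP1 libraries, 1 each in replicates 1 and 4, for a ratio of 66.0 (95% exact binomial interval 18.0 to 549.6). Without shDRP1 replicate 1, Hoxb7 and Hoxb13 would have 0 counts in the group.

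The more anterior HOXB genes had few tags in shDRP1 libraries too, and no comparison along the cluster was made. Hoxb4, known for expanding blood stem cells when raised, had 90 counts in shRandom and 4 in shDRP1 libraries, a ratio of 18.2 (95% exact binomial interval 6.87 to 68.3), with counts in shDRP1 replicates 3 and 5. Hoxb3 had a lowest, median and highest level of 1.46, 1.98 and 2.71 CPM in shRandom libraries and 0.116, 0.309, 0.464, 0.283 and 0.407 CPM in shDRP1 replicates 1 to 5. It was therefore the HOXB gene with the highest level left, with a log2 fold change of -2.65 (SE 0.27, adjusted p = 7.5e-07, edgeR). Hoxb5, of the gut and its nerve cells, was below the filter, with 55 counts in shRandom and 10 in shDRP1 libraries, a ratio of 4.45 (95% exact binomial interval 2.25 to 9.80). Its groups overlapped, since shRandom replicate 1 had 2 counts and shDRP1 replicate 5 had 4.

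Adjusted p-values of the 6 tested HOXB genes in edgeR ran from 1.2e-08 for Hoxb13 to 1.0e-05 for Hoxb8. All 6 passed the filter through the shRandom libraries alone, since no shDRP1 library reached the 0.546 CPM that the filter asks for, so they had to differ and their count supports nothing about the cluster. With no filter beyond 1 count in any library, the 7 HOXB genes were all called lower, Hoxb5 with a log2 fold change of -2.10 (adjusted p = 0.0027, edgeR).

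HOXC lies on chromosome 15 from 102921103 to 103036852, and all of its 9 genes were measured. Hoxc9, which sets thoracic identity in motor neurons, was lower, while the more posterior Hoxc10, Hoxc11 and Hoxc13 were higher. Hoxc9 (ENSMUSG00000036139) lies from 102976439 to 102985099 on the plus strand. It had a lowest, median and highest level of 173.5, 181.3 and 194.2 CPM in shRandom libraries and 89.6, 87.3, 84.4, 77.4 and 72.8 CPM in shDRP1 replicates 1 to 5. Every shDRP1 library was far below the lowest shRandom library. The means were 183.1 ± 10.2 CPM (SD, n = 6) and 82.3 ± 7.01 CPM (SD, n = 5), with a log2 fold change of -1.15 (SE 0.07, adjusted p = 1.3e-09, edgeR). It was the highest HOX gene in shRandom libraries and stood below Hoxc10 in the mean of the shDRP1 libraries.

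Hoxc10, known for hindlimb motor neurons, had a lowest, median and highest level of 74.7, 76.0 and 80.5 CPM in shRandom libraries and 92.9, 85.4, 87.7, 87.4 and 89.7 CPM in shDRP1 replicates 1 to 5. The groups did not overlap, though the step was small, with a log2 fold change of 0.20 (SE 0.05, adjusted p = 0.0021, edgeR). Hoxc11, a gene of the hindlimb, had 39.3, 42.5 and 46.2 CPM as lowest, median and highest shRandom values and 77.4, 63.8, 69.1, 69.3 and 79.2 CPM in shDRP1 libraries. All shDRP1 values lay above all shRandom values, with a log2 fold change of 0.75 (SE 0.07, adjusted p = 2.7e-07, edgeR). Hoxc13, required for hair and nails, had 41.8, 42.6 and 47.1 CPM as lowest, median and highest shRandom values and 74.0, 65.7, 68.0, 78.9 and 72.6 CPM in shDRP1 libraries. It too was higher in every shDRP1 library, with a log2 fold change of 0.72 (SE 0.06, adjusted p = 1.6e-07, edgeR). Hoxc12, between Hoxc11 and Hoxc13 on the chromosome, stayed under 1 CPM in every library, at 0.457 ± 0.300 CPM (SD, n = 6) in shRandom and 0.590 ± 0.153 CPM (SD, n = 5) in shDRP1 libraries (adjusted p = 0.49, edgeR).

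The change in rank within HOXC was also read from the ratio of 2 genes in the same library, which carries no scaling between libraries. Control libraries had between 2.16 and 2.58 Hoxc9 counts per Hoxc10 count, and shDRP1 libraries had between 0.811 and 1.02. Per Hoxc13 count there were 4.20 ± 0.421 (SD, n = 6) Hoxc9 counts in shRandom and 1.15 ± 0.153 (SD, n = 5) in shDRP1 libraries. Neither ratio overlapped between groups. With Hoxc9 lower and both other genes higher without overlap, these ratios could not overlap, so they are no separate evidence.

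The anterior HOXC genes were divided. Hoxc4, the gene nearest the head side of the cluster, had a lowest, median and highest level of 7.996, 10.7 and 12.1 CPM in shRandom libraries and 7.54, 8.51, 5.87, 5.93 and 5.47 CPM in shDRP1 replicates 1 to 5. It was lower (log2 fold change -0.66, SE 0.14, adjusted p = 8.7e-04, edgeR), although shDRP1 replicate 2 reached into the shRandom range. Hoxc6, of the brachial and upper thoracic region, had 23.6, 24.7 and 30.1 CPM as lowest, median and highest shRandom values and 47.3, 42.1, 32.5, 32.3 and 28.7 CPM in shDRP1 libraries. Its increase (log2 fold change 0.50, SE 0.12, adjusted p = 0.0024, edgeR) rested most on shDRP1 replicates 1 and 2, and replicate 5 lay inside the shRandom range. Hoxc8, of the thoracic region, had 1.91, 2.57 and 3.09 CPM as lowest, median and highest shRandom values and 5.34, 3.02, 3.35, 4.29 and 3.72 CPM in shDRP1 libraries. It was higher (log2 fold change 0.65, SE 0.17, adjusted p = 0.0039, edgeR), with replicate 2 the only shDRP1 library inside the shRandom range. Hoxc5 had 0.929, 1.46 and 2.26 CPM as lowest, median and highest shRandom values and 2.90, 1.16, 2.88, 2.17 and 2.15 CPM in shDRP1 libraries. The groups overlapped, and its call (log2 fold change 0.66, SE 0.26, adjusted p = 0.039, edgeR) was lost in 9 of 21 alternatives, with adjusted p up to 0.14, among them those without shRandom replicate 1, 2, 3 or 6 or shDRP1 replicate 1, 3 or 4. The annotated Hoxc5 shares exon bases with Hoxc10 on the same strand, so its counts are uncertain.

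**Figure D2:**
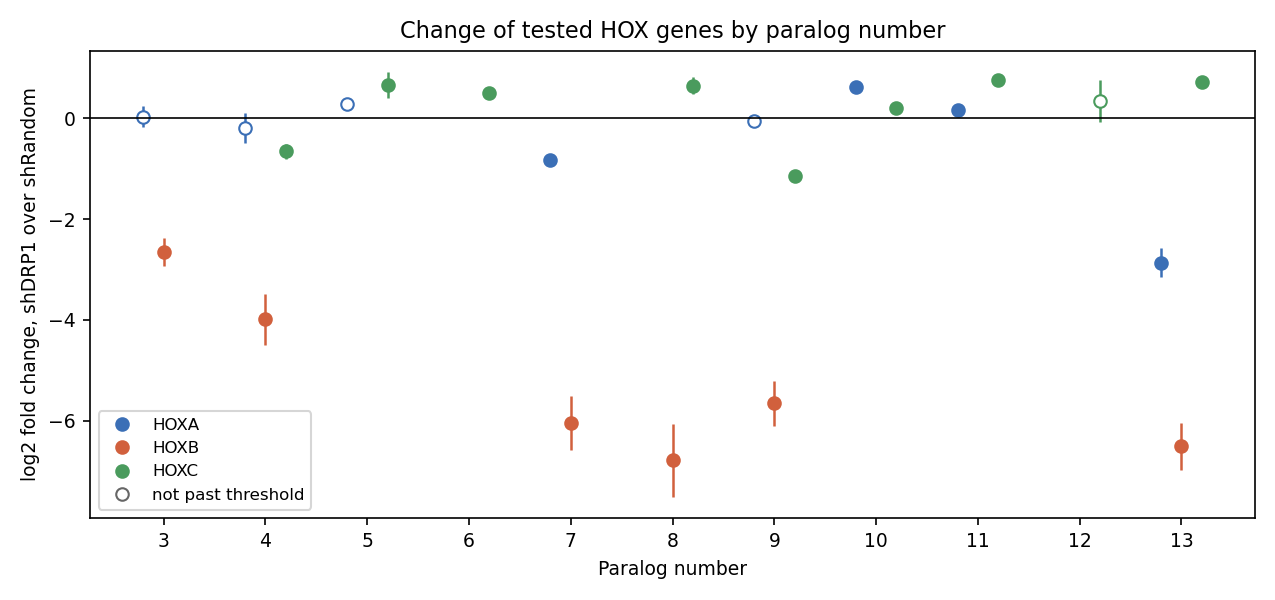
Log2 fold change of shDRP1 over shRandom libraries for 23 tested HOX genes against their paralog number with a colour for each cluster, open circles for genes not past the threshold and bars of 1 standard error from edgeR. The HOXB genes lie far below 0, from Hoxb3 at -2.65 downwards, and most HOXC genes lie above 0 with Hoxc4 and Hoxc9 below. The fitted value of Hoxb8, which had 0 shDRP1 counts, depends on the prior count. Those of Hoxb7, Hoxb9 and Hoxb13, with 1, 2 and 1 shDRP1 counts, depend on it in part.

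HOXA lies on chromosome 6. Its 4 genes at the highest levels gave 3 different outcomes, with Hoxa7 lower, Hoxa9 not past the threshold and Hoxa10 and Hoxa11 higher. Hoxa13, the gene of the hand and foot, fell to the lowest share of its shRandom level in the cluster. The upstream stretches of Hoxa13 and Hoxa10 are shown as the cluster's most lowered and most raised members, in the same form as above. The Hoxa13 stretch is chr6:52260881-52261130 and the Hoxa10 stretch is chr6:52240855-52241104, both on the minus strand.
Hoxa13: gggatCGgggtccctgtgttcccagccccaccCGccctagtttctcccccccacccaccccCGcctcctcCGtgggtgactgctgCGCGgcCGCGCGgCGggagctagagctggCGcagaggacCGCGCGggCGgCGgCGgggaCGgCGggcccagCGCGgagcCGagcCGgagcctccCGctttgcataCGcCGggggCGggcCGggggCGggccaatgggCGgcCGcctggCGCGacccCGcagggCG
Hoxa10: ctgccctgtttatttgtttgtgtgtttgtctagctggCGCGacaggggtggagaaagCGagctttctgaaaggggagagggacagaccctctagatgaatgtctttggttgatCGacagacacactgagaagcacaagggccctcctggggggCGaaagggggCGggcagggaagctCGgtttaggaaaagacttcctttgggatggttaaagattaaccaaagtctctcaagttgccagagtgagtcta
They hold 35 and 7 CG dinucleotides, and the 9 HOXA starts in the table range from 3 to 35. RefSeq gives 2 starts for Hoxa10, and the stretch shown is before the one at the annotated start of the gene.

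Hoxa13 (ENSMUSG00000038203) had a lowest, median and highest level of 2.01, 2.28 and 2.98 CPM in shRandom libraries and 0.174, 0.464, 0.309, 0.141 and 0.582 CPM in shDRP1 replicates 1 to 5. No shDRP1 library came near the shRandom range, and the counts behind these levels were 33 to 54 per shRandom library and 3, 6, 6, 3 and 10 in shDRP1 libraries. The change of Hoxa13 on the log2 scale came to -2.87 (SE 0.29; adjusted p = 5.3e-07 in edgeR). Hoxc13, its paralog, moved the opposite way, and the ratio of Hoxa13 to Hoxc13 counts was 0.0549 ± 0.00988 (SD, n = 6) in shRandom and 0.00475 ± 0.00276 (SD, n = 5) in shDRP1 libraries. Hoxa10 (ENSMUSG00000000938), a gene of the lumbar region and uterus, had 35.0, 43.3 and 46.3 CPM as lowest, median and highest shRandom values and 70.7, 63.9, 58.6, 63.2 and 67.5 CPM in shDRP1 libraries. All 5 shDRP1 values lay above the highest shRandom value, with a log2 fold change of 0.61 (SE 0.08, adjusted p = 5.8e-06, edgeR).

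Hoxa7 (ENSMUSG00000038236) had a lowest, median and highest level of 37.2, 41.4 and 52.1 CPM in shRandom libraries and 22.1, 26.8, 25.3, 23.0 and 22.3 CPM in shDRP1 replicates 1 to 5. The groups stood well apart, with a log2 fold change of -0.83 (SE 0.09, adjusted p = 1.2e-06, edgeR). Hoxa7 exons overlap the antisense transcript Hoxaas3, and the strand setting of the counting is not given in the sources used here, so reads of the pair cannot be told apart. Hoxa9, known as a driver of myeloid leukaemia when raised, had 40.4, 42.1 and 45.8 CPM as lowest, median and highest shRandom values and 46.9, 39.4, 32.3, 39.7 and 44.9 CPM in shDRP1 libraries. The shDRP1 values spread on both sides of the shRandom range (log2 fold change -0.06, SE 0.09, adjusted p = 0.56, edgeR). There were 1.00 ± 0.133 (SD, n = 6) Hoxa7 counts per Hoxa9 count in shRandom and 0.601 ± 0.130 (SD, n = 5) in shDRP1 libraries, with no overlap. Hoxa11, of the forearm and lower leg, had 25.1, 26.4 and 29.3 CPM as lowest, median and highest shRandom values and 32.2, 29.3, 29.8, 29.5 and 31.1 CPM in shDRP1 libraries. The groups nearly touched, and the call (log2 fold change 0.17, SE 0.07, adjusted p = 0.030, edgeR) was lost in 9 of 21 alternatives, with adjusted p up to 0.086, among them those without shRandom replicate 1, 3 or 5 or shDRP1 replicate 1 or 5. Hoxa11 exons also overlap the antisense transcript Hoxa11os.

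Anterior HOXA genes were at lower levels, and their groups overlapped. Hoxa5, of the lung and lower neck, had 4.85, 5.82 and 6.36 CPM as lowest, median and highest shRandom values and 7.02, 8.43, 6.90, 6.45 and 5.76 CPM in shDRP1 libraries. shDRP1 replicates 1 to 4 lay above the shRandom range, and the difference missed the threshold (log2 fold change 0.28, SE 0.12, adjusted p = 0.055, edgeR) but passed it in 5 of 21 alternatives, among them those without shRandom replicate 2 or shDRP1 replicate 5. Hoxa3, of the third pharyngeal arch and thymus, had 1.29, 2.13 and 2.80 CPM as lowest, median and highest shRandom values and 1.97, 2.63, 1.91, 1.88 and 2.56 CPM in shDRP1 libraries, which lay within the shRandom range (adjusted p = 0.89, edgeR). Hoxa4 had 0.946 ± 0.290 CPM (SD, n = 6) in shRandom, from 0.509 to 1.225 CPM, and 0.813 ± 0.314 CPM (SD, n = 5) in shDRP1 libraries, from 0.406 to 1.13 CPM (adjusted p = 0.57, edgeR). Hoxa2, of the second pharyngeal arch, was below the filter at 0.381 ± 0.103 CPM (SD, n = 6) and 0.292 ± 0.181 CPM (SD, n = 5). Exons of Hoxa3 overlap the antisense Hoxaas2 and Hoxaas3.

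Read by paralog number, calls in opposite directions were seen in groups 8 and 13. In group 13, Hoxa13 and Hoxb13 were lower and Hoxc13 higher. In group 9, Hoxb9 and Hoxc9 were lower and Hoxa9 did not pass the threshold. Group 7 had Hoxa7 and Hoxb7, both lower, and group 8 had Hoxb8 lower and Hoxc8 higher. In groups 10 and 11 the measured HOXA and HOXC genes were all higher. In group 4, Hoxb4 and Hoxc4 were lower and Hoxa4 did not pass, in group 3 Hoxb3 was lower and Hoxa3 did not pass, and in group 5 Hoxc5 was higher and Hoxa5 did not pass. There were 4.33 ± 0.328 (SD, n = 6) Hoxc9 counts per Hoxa9 count in shRandom and 2.06 ± 0.372 (SD, n = 5) in shDRP1 libraries. For group 11 the ratio of Hoxc11 to Hoxa11 counts moved the other way, from 1.58 ± 0.0622 (SD, n = 6) to 2.36 ± 0.134 (SD, n = 5). Neither ratio overlapped between groups.

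Long non-coding transcripts of the clusters were followed by a list of 13, of which 6 had a row, 5 were tested, 3 were higher and 2 lower. Both lower ones reached the filter in shRandom libraries alone, so their direction was fixed by it, and 67.1% of all genes tested were called. Without any of shRandom replicates 1, 2, 3, 4 or 6, 1 was lower, and with the stricter filter 0 were. Hotair, transcribed from HOXC and known as a partner of Polycomb in human cells, had 4.98 ± 0.972 CPM (SD, n = 6) in shRandom and 8.03 ± 2.15 CPM (SD, n = 5) in shDRP1 libraries (log2 fold change 0.69, adjusted p = 0.0040, edgeR), with overlap between groups. Hoxa11os, antisense to Hoxa11, had 20.5 ± 1.92 CPM (SD, n = 6) and 24.4 ± 1.83 CPM (SD, n = 5), also called higher (log2 fold change 0.25, adjusted p = 0.017, edgeR) with overlap between groups, a call lost with the replicate block. The lower ones were Hoxaas2, with 99 counts in shRandom and 30 in shDRP1 libraries, and Halr1, with 132 and 15 counts. Both were named after their values were seen. A further transcript chosen after its values were seen was Gm27605, an annotated miscellaneous RNA between Hoxb13 and Hoxb9, with 206 counts in shRandom and 0 in shDRP1 libraries. That is at least 55.6-fold lower against the floor of 3 counts over the group, and the exact binomial interval allows 44.8-fold. The pseudogene Gm11539, also chosen after its values were seen, lies in HOXB as well and had 8.07 ± 0.679 CPM (SD, n = 6) in shRandom and 7.27 ± 0.646 CPM (SD, n = 5) in shDRP1 libraries (adjusted p = 0.20, edgeR).

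Genes that flank the clusters were counted as well. The tested HOXB genes had to be lower through the filter, so their contrast with the neighbours cannot show where a difference ends. Of the 5 nearest measured protein-coding genes on each side of each cluster, 40 in all, 11 were higher, 14 lower and 15 not past the threshold. That is 62.5% called, near the 67.1% of all genes tested. Around HOXB, 5 were higher and 4 lower, around HOXA 2 and 4, around HOXC 3 and 2, and around HOXD 1 and 4. The nearest HOXB neighbours were Atp5g1, a subunit of ATP synthase, with 82.2 ± 8.54 CPM (SD, n = 6) in shRandom and 55.2 ± 4.23 CPM (SD, n = 5) in shDRP1 libraries, and Skap1, an adaptor protein of T cells, with 1.32 ± 0.371 CPM (SD, n = 6) and 1.65 ± 0.506 CPM (SD, n = 5). Atp5g1 was lower (log2 fold change -0.57, adjusted p = 1.8e-05, edgeR) and Skap1 did not pass (adjusted p = 0.22). Igf2bp1, an RNA-binding protein gene 188.4 kb from HOXB and chosen after its values were seen, reached the filter in shDRP1 libraries alone, with 16 counts in shRandom and 517 in shDRP1 libraries (log2 fold change 5.27, adjusted p = 3.5e-10, edgeR). Around HOXC, Calcoco1, a coactivator and autophagy receptor, was lower (309.5 ± 25.1 CPM, SD, n = 6, against 136.5 ± 21.9 CPM, SD, n = 5), and Smug1, a DNA repair glycosylase, did not pass. Around HOXA, Skap2 was higher (log2 fold change 0.30, adjusted p = 1.6e-04, edgeR) and Hibadh did not pass. Lnpk and Mtx2, which flank HOXD, had 17.0 and 18.5 CPM in shRandom and 17.8 and 22.2 CPM in shDRP1 libraries and did not pass.

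**Figure D3:**
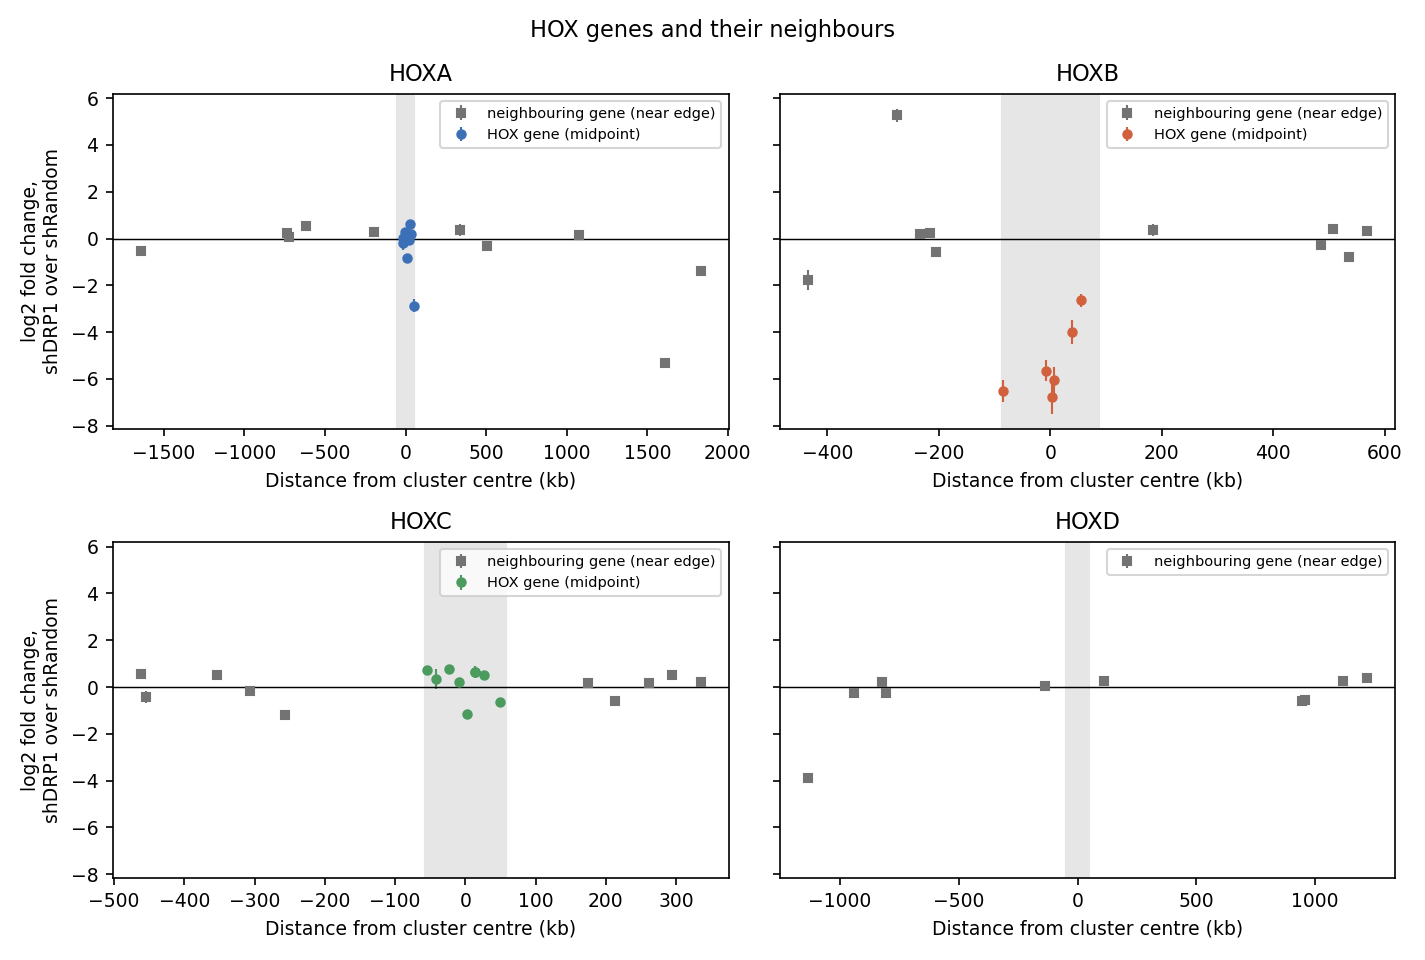
Log2 fold change of shDRP1 over shRandom libraries for the same 23 HOX genes and their nearest measured protein-coding neighbours, with 1 panel per cluster and the distance from the cluster's centre in kb on the horizontal axis. In the HOXB panel the HOX genes, which reached the filter in shRandom libraries alone and had to be lower, lie far below 0. The 10 neighbours lie on both sides of 0, with Igf2bp1 at 5.27.

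HOX proteins gain DNA specificity from TALE partners, and 10 of the 11 listed partners were tested. The counts were 6 higher and 2 lower, with a median log2 fold change of 0.51 over the list. This is 80.0% called, beside 67.1% of all genes tested. Meis1, a partner of posterior HOX proteins in leukaemia, had 9.53 ± 1.02 CPM (SD, n = 6) and 16.7 ± 2.11 CPM (SD, n = 5). Meis2, with roles in the limb, had 77.7 ± 6.91 CPM (SD, n = 6) and 118.6 ± 5.92 CPM (SD, n = 5). Meis3 had the largest fold increase of the list, with 6.01 ± 0.844 CPM (SD, n = 6) in shRandom and 13.01 ± 2.33 CPM (SD, n = 5) in shDRP1 libraries. Pbx2, a widely used Pbx partner, had 44.3 ± 2.21 CPM (SD, n = 6) and 58.8 ± 1.70 CPM (SD, n = 5). Pbx3 had 25.3 ± 1.30 CPM (SD, n = 6) and 38.99 ± 3.97 CPM (SD, n = 5), and both, named after their values were seen, were called higher, with adjusted p of 1.3e-05 and 4.2e-06 in edgeR. In contrast, the Prep family was lower: Pknox1 had 41.1 ± 4.41 CPM (SD, n = 6) and 26.8 ± 0.884 CPM (SD, n = 5), and Pknox2 had 16.7 ± 0.842 CPM (SD, n = 6) and 0.610 ± 0.164 CPM (SD, n = 5), a log2 fold change of -4.80 (SE 0.14, adjusted p = 7.4e-13, edgeR). None of these 7 overlapped between groups, beside 48.9% of all genes tested that did not overlap. The 7 were picked among called genes, so their lack of overlap says nothing of the list as a whole. Each of the 7 kept its direction in the alternatives run. The repressors Tgif1 and Tgif2 did not pass the threshold, and their groups overlapped.

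**Figure D4:**
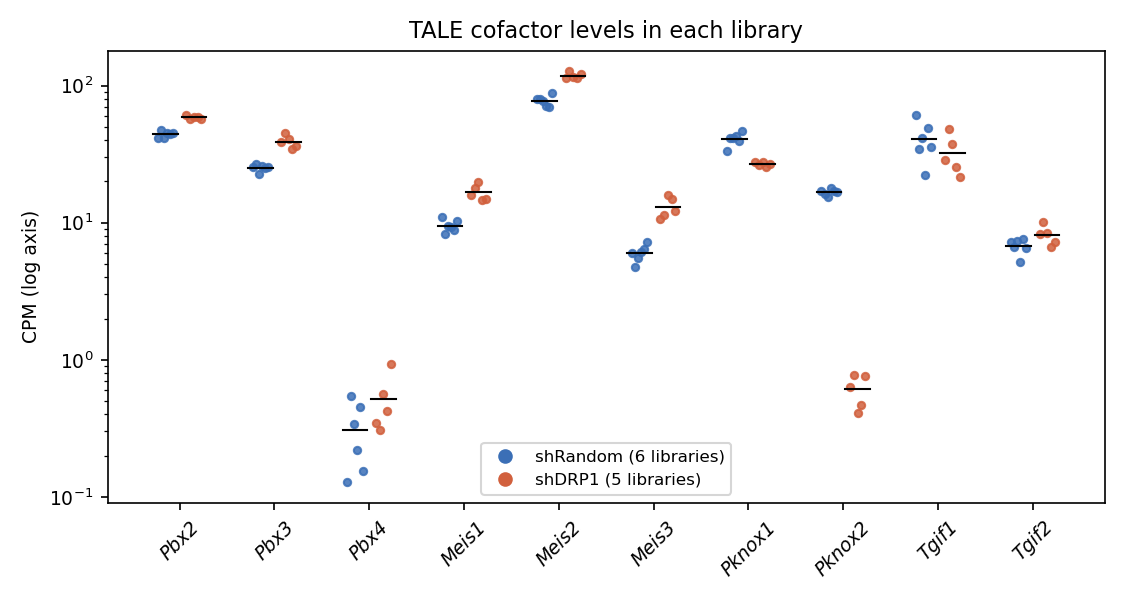
Tag level in CPM of 10 TALE partner genes in every shRandom and shDRP1 library, on a log axis. Pbx2, Pbx3 and the Meis genes lie higher in shDRP1 libraries and both Pknox genes lower, with Pknox2 between 0.412 and 0.773 CPM in the 5 shDRP1 libraries.

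Polycomb complexes methylate or ubiquitinate histones and keep HOX clusters silent where they are not used. All 31 listed genes were tested, of which 13 were higher, 3 lower and 15 not past the threshold, with a median log2 fold change of 0.19. The share called, 51.6%, was below the 67.1% of all genes tested. Without shDRP1 replicate 2, 5 were lower, and at an adjusted p of 0.01, 6 were higher. Ezh1, the H3K27 methyltransferase of non-dividing cells, had 67.1 ± 2.13 CPM (SD, n = 6) in shRandom and 28.6 ± 2.18 CPM (SD, n = 5) in shDRP1 libraries (log2 fold change -1.23, adjusted p = 3.2e-10, edgeR). Pcgf6, of a variant repressive complex, was lower as well (12.5 against 7.47 CPM). Among the readers and scaffold genes that were higher, Cbx8 had 6.82 and 12.7 CPM, Cbx6 had 252.5 and 396.1 CPM and Phc2 had 35.5 ± 13.8 CPM (SD, n = 6) and 65.1 ± 27.7 CPM (SD, n = 5), the last with overlap between groups. The call of Phc2 (adjusted p = 0.031, edgeR) was lost in 5 of 21 alternatives, namely without shRandom replicate 2 or 6, without shDRP1 replicate 2 or 3, and without shRandom replicate 1 and shDRP1 replicate 2 together. Rbbp4, a histone-binding subunit, had 321.9 and 322.5 CPM (adjusted p = 0.97, edgeR).

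Trithorax and linked genes, which keep clusters active, had 4 higher, 1 lower and 11 not past the threshold of 16 tested, with a median log2 fold change of 0.12. The share called was 31.2%, beside 67.1% of all genes tested. Mllt3, a reader of acylated histones in the elongation machinery that acts at HOXA, had 30.9 ± 3.26 CPM (SD, n = 6) and 97.1 ± 8.46 CPM (SD, n = 5), a log2 fold change of 1.65 (SE 0.08, adjusted p = 2.3e-10, edgeR). Its relative Mllt1 (14.3 and 22.5 CPM), the H3K79 methyltransferase Dot1l (59.0 and 76.7 CPM) and the MLL partner Men1 (27.1 and 38.4 CPM) were higher too. Psip1, which tethers MLL complexes, and the methyltransferase gene Ash1l had 234.1 and 131.1 CPM in shRandom and did not pass the threshold. Of 8 genes for CTCF and cohesin, which fold the clusters into domains, 1 was higher and 5 lower, with a median log2 fold change of -0.25. The share called was 75.0%, beside 67.1% of all genes tested. These counts were not steady: 3 were lower without shRandom replicate 4 or without shDRP1 replicate 3. The number higher was 2 without shRandom replicate 4, and 0 without shRandom replicate 1, 2 or 5 or shDRP1 replicate 1, 4 or 5. Under scaling by library totals or upper quartile, 2 were higher and 3 lower, and with the replicate block 0 and 3. Stag1 had 48.9 ± 6.79 CPM (SD, n = 6) and 27.9 ± 4.72 CPM (SD, n = 5), and Rad21 had 387.1 ± 27.4 CPM (SD, n = 6) and 293.1 ± 30.7 CPM (SD, n = 5), both lower with no overlap. Wapl, the cohesin release factor (135.8 and 98.4 CPM), and Smc1a (452.7 and 381.1 CPM) were lower with overlap between groups. The call of Smc1a (adjusted p = 0.035, edgeR) was lost in 9 of 21 alternatives, namely with the replicate block, under scaling by library totals or upper quartile, and without shRandom replicate 2, 3, 4 or 6 or shDRP1 replicate 2 or 3.

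Retinoic acid switches on HOX genes from the anterior end of a cluster in the embryo, and genes that make, carry or break it were mostly lower. Of 21 listed genes, Aldh1a1, Aldh1a2, Cyp26c1, Cdx1, Cdx2 and Cdx4 had no row in the table used and were not analysed here. Among the 13 tested, 3 were higher and 8 lower, with a median log2 fold change of -1.04. This is 84.6% called, beside 67.1% of all genes tested, and 3 of the lower genes, Aldh1a3 among them, reached the filter in shRandom libraries alone and had to be lower. Aldh1a3, an enzyme that makes retinoic acid, had 638 counts in shRandom and 2 in shDRP1 libraries, a ratio of 258.3 (95% exact binomial interval 71.2 to 2138). Both remaining counts were in shDRP1 replicate 5, and without it the group would have 0. Crabp2, which carries retinoic acid to its receptors, had 98.4 ± 24.4 CPM (SD, n = 6) and 19.1 ± 3.60 CPM (SD, n = 5), and Cyp26b1, which breaks retinoic acid down, had 6.09 ± 0.730 CPM (SD, n = 6) and 0.886 ± 0.101 CPM (SD, n = 5). Dhrs3, which returns retinaldehyde to retinol, went the other way, with 67.1 ± 10.2 CPM (SD, n = 6) and 185.4 ± 5.19 CPM (SD, n = 5). The receptor gene Rarg had 195.6 and 192.1 CPM (adjusted p = 0.83, edgeR). Adjusted p-values of the 4 called genes named here ran from 4.7e-10 for Cyp26b1 to 5.2e-08 for Crabp2 in edgeR.

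Other transcription factors with regional roles had 7 higher and 13 lower of 23 tested, from a list of 42 of which 28 had a row, and their median log2 fold change was -0.57. The share called was 87.0%, beside 67.1% of all genes tested. The direction of 5 was fixed by the filter, since Pax7, Lbx1 and Emx2 reached it in shRandom libraries alone and Lhx2 and Pax9 in shDRP1 libraries alone. Pax7, of muscle stem cells, had 1930 counts in shRandom and 5 in shDRP1 libraries, and Irx3 had 183.4 ± 13.1 CPM (SD, n = 6) and 30.4 ± 2.01 CPM (SD, n = 5). Shox2, a limb gene, was lower with overlap between groups (217.4 ± 22.05 CPM, SD, n = 6, against 173.5 ± 27.6 CPM, SD, n = 5, adjusted p = 0.013, edgeR), a call lost under upper quartile scaling. Higher were Lhx2, with 31 counts in shRandom and 637 in shDRP1 libraries, Eya1 (6.89 and 35.3 CPM) and Prrx1, a marker of limb mesenchyme (131.0 ± 10.1 CPM, SD, n = 6, against 358.0 ± 19.8 CPM, SD, n = 5). Irx3, Eya1 and Prrx1 did not overlap between groups, with adjusted p-values in edgeR from 2.7e-13 for Irx3 to 6.1e-11 for Prrx1. Pax7 and Lhx2 did not overlap either, which the filter largely fixed. All 5 were picked by size of change or level, and 48.9% of all genes tested did not overlap. Some of these genes, Pax7 and Prrx1 among them, also mark muscle precursors or mesenchyme, for which no marker sum of their own was made. The part of such cells in these differences was not tested.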

How the data were processed

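The 11 libraries were made with a Lexogen QuantSeq kit, per the labels' protocols, which reads a short 3' tag of each transcript. The hairpin in the title gave each library its group. One deposited table of the authors gives raw counts for 15113 genes with no normalization. The authors' other table gives a signal, which its values show to be each count over a size factor of that library, and it served as a check of the scaling alone. GRCm38, mm10 and version 1.22.2 of DESeq2 are listed in the submitters' processing notes. No aligner, counting program or strand setting is stated, and the read length stands as both 50 and 75 bases.

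Symbols were found for 15080 identifiers and not for 33. The test was edgeR's quasi-likelihood test (version 4.0.16, in R version 4.3.3), robust, with the group as its only term, TMM scaling and Benjamini-Hochberg adjustment over the 13025 genes that filterByExpr kept (0.546 CPM in at least 5 libraries), at 0.05. The steps were tested on simulated data. GENCODE M21 on GRCm38 gave positions, and RefSeq on GRCm38.p6 gave promoters and microRNAs. The alternatives tried were other scalings and filters, DESeq2 version 1.42.0, limma-voom (limma version 3.58.1), a replicate block, thinned counts, stricter calls and each library left out in turn.

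The members and gene lists were chosen with earlier results of these data known. Named were every HOX gene with a row, Dnm1l, and of each other list up to 4 called members with the largest fold change among those with a mean of at least 5 CPM, plus the 2 at the highest level. Of the neighbours, the nearest on each side was named. A few results under this rule are left out here. No pair of libraries was a repeat of the same library (chi-square over degrees of freedom 5.30 to 61.6). Total counts of 12277622 to 23082617 per library leave genes under 1 CPM with few counts each.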

Additional observations from a re-analysis of the deposited data

Results flagged for a closer look

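Among 57 groups of values examined, 6 had a sample farther from the others than Dixon's 95% critical value allows, and chance flags about 1 in 20 groups. shRandom replicate 1 had 52.06 CPM of Hoxa7, where the other shRandom libraries had 37.24 to 42.16 CPM. The same library had 0.9546 CPM of Hoxb9, where the others had 1.492 to 1.713 CPM. shDRP1 replicate 1 had 0.058 CPM of Hoxb7 and 0.058 CPM of Hoxb13, 1 count each, while the other shDRP1 libraries had 0. A lone count among zeros is always flagged, so the rate of 1 in 20 does not hold for these groups. shRandom replicate 3 had the lowest sum over HOXA, 160.9 CPM, beside 166.4 to 169.7 CPM. shDRP1 replicate 1 had the highest HOXC sum of its group, 397.4 CPM, beside 354.3 to 358.3 CPM.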

How the results depend on the processing

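The 8 higher and 10 lower HOX genes became 6 to 8 and 9 to 11 when each library was left out in turn. With at least 2-fold changes required, 0 HOX genes were higher, 1461 genes of the whole table were higher and 1786 lower, and 11 and 23 of the listed genes. The median of all genes shifted to 0.13 under library totals alone and 0.12 under upper quartile scaling. The summed control level of HOXA was then 162.0 and 162.7 CPM and that of HOXC 375.3 and 377.0 CPM. With the stricter filter, 3 HOXB genes were called lower and the HOX counts were 9 and 7. Among the HOX genes, changes of sign were seen only for genes with no call. Leaving out each library in turn, the log2 fold change of Hoxa3 ran from -0.0851 to 0.116 and was below 0 without shRandom replicate 3 or 4 or shDRP1 replicate 2 (-0.0423) or 5 (-0.0320). That of Hoxa9 ran from -0.114 to 0.0148, the last without shDRP1 replicate 3, and was 0.0388 with library totals and 0.0256 with upper quartile factors. With the replicate number as a block, 6 HOX genes were higher and 10 lower, 3934 and 4003 over the whole table, and Hoxa11 and Hoxc5 lost their calls, as did Hoxa11os and Smc1a among the other genes named. Same-number correlations of deviations ran from -0.176 to 0.357, and only shDRP1 replicate 4 correlated most with the control replicate of its own number. Whether the numbers pair any libraries is not given by the labels. Depth limits the HOXB genes most, and Hoxb8 passed the filter in 14 of 21 alternatives. The cause of these moves was not tested.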

Other observations

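Beyond the nearest genes on each side, a few of the 40 flanking genes had large differences, and they were chosen after their values were seen. Chrna1, the alpha subunit of the muscle acetylcholine receptor, lies 1088 kb from HOXD and had a log2 fold change of -3.87 (SE 0.10, adjusted p = 2.3e-13, edgeR). Tril, a Toll-like receptor interactor, lies 1554.6 kb from HOXA and had a log2 fold change of -5.34 (SE 0.20, adjusted p = 1.2e-11, edgeR). Chrna1 is itself one of the 18 skeletal muscle genes summed above. Tril reached the filter in shRandom libraries alone, so its direction was fixed by it.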
